A study of Mus musculus with 15 samples.

Results

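Heat shock proteins and their cochaperones were followed in single cells of the mouse prefrontal cortex (PFC). The group held 10 genes chosen by symbol: the HSP70 family members Hspa1a, Hspa1b, Hspa8 and Hspa5, the HSP90 genes Hsp90aa1 and Hsp90ab1, the cochaperones Hsph1 and Dnajb1, the small heat shock protein gene Hspb1 and the mitochondrial cochaperonin gene Hspe1. All 10 were listed once among the 26145 genes of the deposited matrices. Cells were captured with the 10X Chromium droplet system after papain dissociation, and transcripts were counted as unique molecular identifiers (UMIs). The 15 libraries came from male C57BL/6N mice, each library from the pooled tissue of 2 mice. The study's methods name fewer P21 mice than separate pools for every P21 library would need, so that P21 libraries may share animals. P21 (postnatal day 21) was represented by 3 libraries of mice aged 3 weeks with no self-administration phase. P60 was represented by 12 libraries of mice labelled as aged 8 to 10 weeks that had self-administered cocaine or saline intravenously. The study describes catheter implantation at P60, before self-administration and withdrawal. Age at tissue collection may thus lie above the label and differ between the periods. The P60 libraries formed 6 groups of 2, taken at the end of the maintenance phase, at 48 h of withdrawal or at 15 days of withdrawal, each with a saline and a cocaine group. Age and the history of catheter implantation and self-administration cannot be told apart in these groups. A tissue tag of the samples read NAc while titles and source names read PFC, and the most numerous cells were excitatory neurons with their markers Snap25, Slc17a7 and Neurod6 detected.

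Heat shock proteins are chaperones that bind unfolded stretches of other proteins and help them to fold, to be transported or to be degraded. HSP70 proteins work in cycles of ATP binding and hydrolysis, J-domain proteins such as Dnajb1 bring clients to them, and nucleotide exchange factors such as Hsph1 reset them. Hspa1a, Hspa1b, Hsp90aa1, Hsph1, Dnajb1 and Hspb1 are known as targets of heat shock factor 1, which binds repeated GAA blocks called heat shock elements, whereas Hspa5 (BiP) sits in the endoplasmic reticulum and is known as a target of the unfolded protein response. Hspa8 and Hsp90ab1 are the abundant constitutive forms of HSP70 and HSP90 in the cytosol.

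RefSeq promoters were at hand for 7 of the 10 genes, and those of Hspa8, Hsp90aa1 and Hsp90ab1 were not analysed here. The 250 bases before the annotated start were read on both strands for a pair of heat shock blocks (GAANNTTC or TTCNNGAA), for a run of 3 blocks (GAANNTTCNNGAA or TTCNNGAANNTTC, which holds the pair) and for the endoplasmic reticulum stress element (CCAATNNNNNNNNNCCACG). The promoters that follow are printed 5′ to 3′ on the gene's strand in GRCm38.p6, because they show the sequence shared by Hspa1a and Hspa1b and the different elements of Hspa5, Hspb1 and Hspe1. Capitals mark the matches.
Hspa1a: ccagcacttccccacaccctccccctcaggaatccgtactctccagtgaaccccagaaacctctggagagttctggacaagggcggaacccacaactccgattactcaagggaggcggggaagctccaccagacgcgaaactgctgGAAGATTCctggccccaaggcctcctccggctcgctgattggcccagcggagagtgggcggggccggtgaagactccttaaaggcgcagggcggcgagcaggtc
Hspa1b: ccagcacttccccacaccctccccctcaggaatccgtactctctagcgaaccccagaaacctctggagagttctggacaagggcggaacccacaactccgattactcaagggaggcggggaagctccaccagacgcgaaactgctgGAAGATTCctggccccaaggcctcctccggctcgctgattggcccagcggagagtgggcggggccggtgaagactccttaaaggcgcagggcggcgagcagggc
Hspa5: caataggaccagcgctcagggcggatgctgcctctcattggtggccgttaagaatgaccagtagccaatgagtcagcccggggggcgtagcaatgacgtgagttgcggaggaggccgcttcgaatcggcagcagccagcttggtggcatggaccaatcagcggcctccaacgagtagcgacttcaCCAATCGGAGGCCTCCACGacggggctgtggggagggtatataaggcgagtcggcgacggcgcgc
Hspb1: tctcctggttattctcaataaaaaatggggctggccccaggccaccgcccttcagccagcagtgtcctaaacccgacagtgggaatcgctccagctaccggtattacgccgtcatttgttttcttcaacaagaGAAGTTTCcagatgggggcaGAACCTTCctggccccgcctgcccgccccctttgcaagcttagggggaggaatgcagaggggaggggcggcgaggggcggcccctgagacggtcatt
Hspe1: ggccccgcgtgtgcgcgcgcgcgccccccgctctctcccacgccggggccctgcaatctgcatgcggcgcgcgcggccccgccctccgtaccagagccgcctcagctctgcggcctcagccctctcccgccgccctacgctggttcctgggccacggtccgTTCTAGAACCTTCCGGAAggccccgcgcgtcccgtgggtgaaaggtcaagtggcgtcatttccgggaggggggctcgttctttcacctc
These windows lay at chr17:34972157-34972406 (minus strand) for Hspa1a, chr17:34959239-34959488 (minus strand) for Hspa1b, chr2:34771840-34772089 (plus strand) for Hspa5, chr5:135887669-135887918 (plus strand) for Hspb1 and chr1:55087898-55088147 (plus strand) for Hspe1.

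The promoters of Hspa1a and Hspa1b were identical at 247 of 250 bases (98.8%), and each held 1 heat shock pair that began 104 bases before the start. Hspb1 held 2 pairs, at 117 and 97 bases before the start. Hspe1, which shares its upstream region with the HSP60 gene Hspd1 on the other strand, held 3 overlapping pairs that made 2 runs of 3 blocks. Hsph1 held 1 pair, 54 bases before the first of its annotated starts. Neither annotated start of Dnajb1 had a match, and Hspa5 had no heat shock pair but 1 endoplasmic reticulum stress element. Among all 32817 promoter windows of this length, 12.8% held a pair, 0.466% a run of 3 blocks and 0.113% the endoplasmic reticulum element. A match describes letters in these windows and does not show that a factor was bound there.

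The libraries held 1055 to 4439 retained cells each (24822 cells at P60 and 10538 at P21) and 8375172 to 42892922 UMIs. UMIs per library followed the period, with 8375172 to 11998611 at maintenance, 12449647 to 20336658 at 48 h and 27704573 to 42892922 at 15 days. So did the retained cells per library, at 1055 to 1504, 1506 to 1830 and 2512 to 3784. The P21 libraries held 19765973 to 40972771 UMIs. Library pairs shared at most 1.09% of their cell barcodes. The first saline maintenance library stood apart with a median of 3426 UMIs per cell and with outlying chaperone levels in several cell types. That median is over cells of all types, and 321 of its 1278 cells were excitatory neurons. UMIs were summed per library and cell type, levels are given as CPM, the UMIs of a gene per 1000000 UMIs of that type, and the library was the replicate. The p-values therefore measure the spread between libraries of pooled mice, which at P21 may be technical in part. Cell types were the families of the deposited clusters, named here excitatory and inhibitory neurons, astrocytes, oligodendrocyte precursors, newly formed oligodendrocytes, mature oligodendrocytes, microglia and endothelial cells.

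The inducible HSP70 genes had their highest level in the vasculature. In the P60 saline libraries Hspa1a (NCBIM37 chr17:35106144-35109069) reached 1372 ± 524 CPM in endothelial cells (SD, n = 6). Microglia followed with 392 ± 279 CPM (n = 6), mature oligodendrocytes with 184 ± 159 CPM (n = 6), newly formed oligodendrocytes with 176 ± 45.5 CPM (n = 5) and precursors with 176 ± 115 CPM (n = 5). Neurons had less, 73.7 ± 32.3 CPM in inhibitory and 40.0 ± 18.0 CPM in excitatory neurons (n = 6 each), and astrocytes had 26.4 ± 21.6 CPM (n = 5). Only the endothelial level was separated from the next in this order by more than the SDs, and every other pair of neighbours overlapped.

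Hspa1b (chr17:35093381-35096183), the adjacent near-copy of Hspa1a, was also highest in endothelial cells, with 44.5 ± 37.5 CPM. Microglia had 13.7 ± 21.3 CPM and mature oligodendrocytes 12.6 ± 8.45 CPM (n = 6 each), on 35 and 37 UMIs, and the SDs of these types overlapped. The microglial mean rested on the first saline maintenance library (56.6 CPM, next 9.89 CPM). The medians were 6.06 CPM in microglia and 8.68 CPM in mature oligodendrocytes. Excitatory neurons held 1.91 ± 0.452 CPM (n = 6). Of 44 windows of 98 bases near the 3′ end of Hspa1b, 12 matched another place in the genome within 2 bases, against 0 of 22 windows for Hspa1a, so that the division of reads between the copies is uncertain for Hspa1b. Look-alike windows were also found for Hspa8 (55 of 79), Hsp90aa1 (43 of 71), Hspb1 (39 of 55), Hspe1 (11 of 33) and Hsp90ab1 (5 of 80), whose counts are uncertain to that extent, and not for Hspa5, Hsph1 or Dnajb1.

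**Figure D1:**
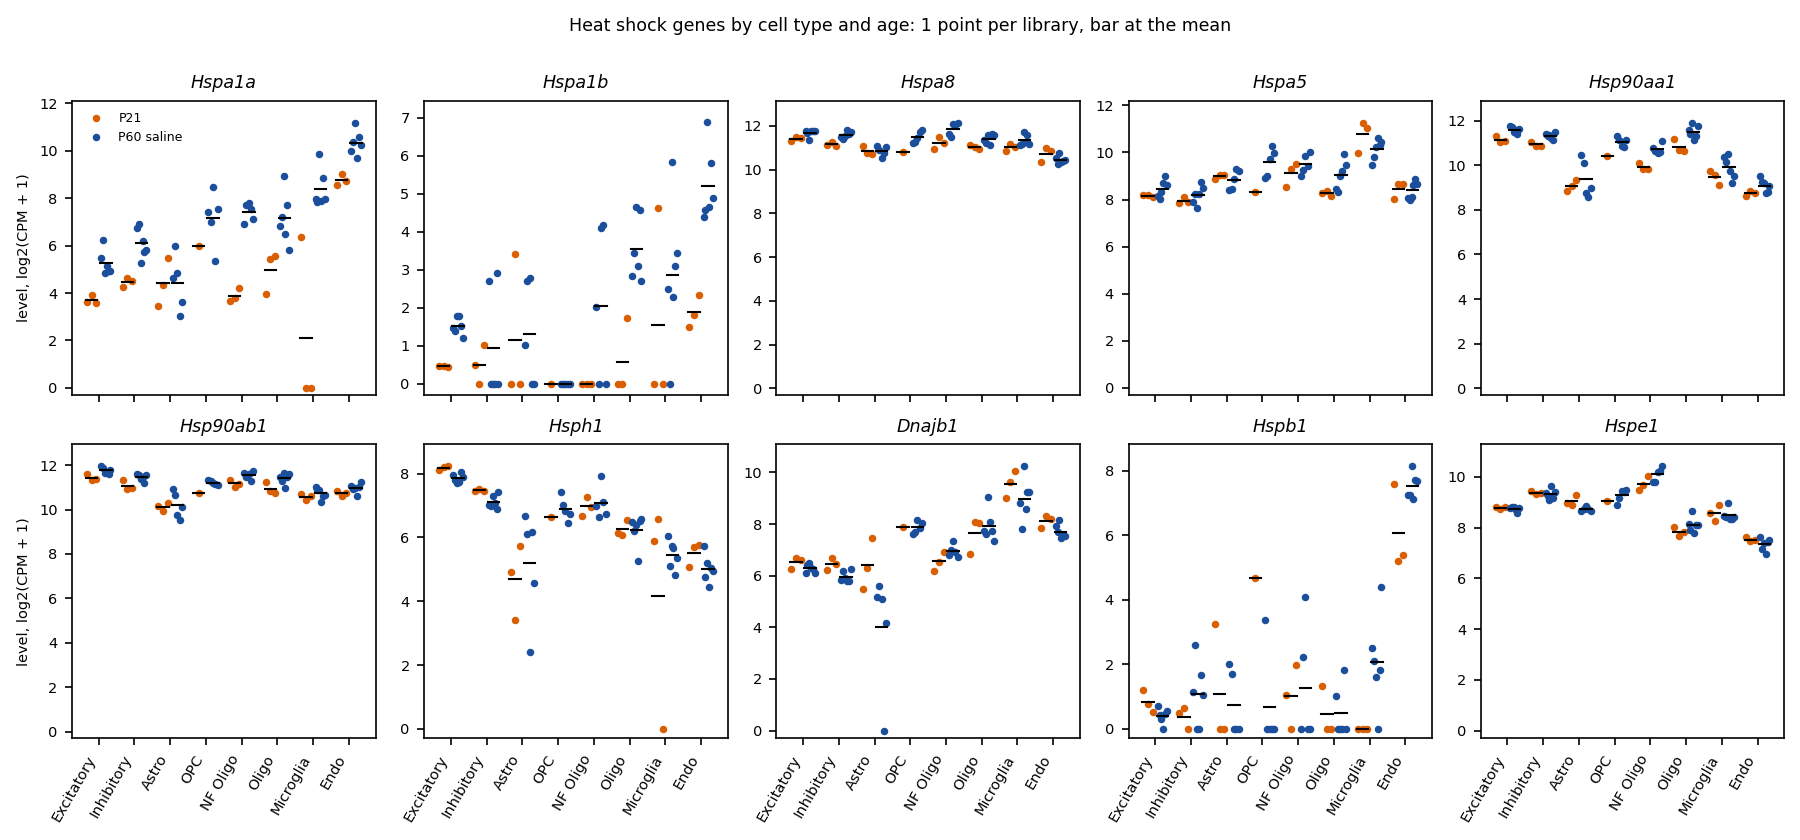
Level of each of the 10 genes in the 8 cell types, with log2(CPM + 1) on the y axis, 1 point per library (orange P21, n = 3 or fewer, and blue P60 saline, n = 5 or 6) and a black bar at the mean. Hspa1a at P60 sat highest in endothelial cells (mean 1372 CPM), Hspb1 was also highest there, and Hspa8 and Hsp90ab1 were present in every type.

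Hspa8 (chr9:40609067-40613283), the constitutive HSP70, was present in every type. Its highest levels were 3807 ± 747 CPM in newly formed oligodendrocytes (n = 5) with 3324 ± 365 CPM in excitatory neurons (n = 6), and its lowest 1879 ± 287 CPM in astrocytes (n = 5) and 1407 ± 167 CPM in endothelial cells (n = 6). The endothelial level was the only one apart from its neighbour by more than the SDs. Hspa8 was thus lowest in the type where Hspa1a was highest.

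Hspa5 (chr2:34627490-34632051) was highest in microglia with 1167 ± 313 CPM (n = 6), followed by precursors with 818 ± 327 CPM and newly formed oligodendrocytes with 751 ± 215 CPM (n = 5 each). Excitatory neurons held 362 ± 94.9 CPM, endothelial cells 343 ± 88.7 CPM and inhibitory neurons 303 ± 79.9 CPM (n = 6 each). All neighbours in this order overlapped.

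Both HSP90 genes were high in neurons and in the oligodendrocyte lineage. Hsp90aa1 (chr12:111928815-111940938), the inducible form, had 3074 ± 283 CPM in excitatory neurons, 2958 ± 599 CPM in mature oligodendrocytes and 2553 ± 235 CPM in inhibitory neurons (n = 6 each). It fell off to 1011 ± 342 CPM in microglia (n = 6), 768 ± 462 CPM in astrocytes (n = 5) and 552 ± 111 CPM in endothelial cells (n = 6), and the step between newly formed oligodendrocytes (1708 ± 276 CPM, n = 5) and microglia exceeded the SDs. Hsp90ab1 (chr17:45704724-45710220) varied less, from 3487 ± 340 CPM in excitatory neurons (n = 6) to 1242 ± 504 CPM in astrocytes (n = 5), with overlap between all neighbours.

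Hsph1 (chr5:150416862-150438951), the HSP110 nucleotide exchange factor, was highest in excitatory neurons with 231 ± 22.7 CPM (n = 6), above the 141 ± 57.2 CPM of newly formed oligodendrocytes (n = 5) and the 139 ± 19.8 CPM of inhibitory neurons (n = 6), and lowest in endothelial cells with 32.8 ± 10.9 CPM (n = 6). Dnajb1 (chr8:86132074-86135801), an HSP40 J-domain protein, was highest in microglia with 578 ± 343 CPM and stood at 262 ± 133 CPM in mature oligodendrocytes and 212 ± 41.8 CPM in endothelial cells (n = 6 each). Excitatory neurons held 77.7 ± 8.90 CPM of Dnajb1 and inhibitory neurons 61.8 ± 9.16 CPM (n = 6 each).

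Hspb1 (chr5:136363789-136365433), a small heat shock protein that holds unfolded proteins without ATP, was an endothelial transcript at 189 ± 54.3 CPM (n = 6). The next type was microglia with 5.37 ± 7.22 CPM, and excitatory neurons held 0.337 ± 0.210 CPM (n = 6 each). The microglial value rested on 8 UMIs, with a median of 2.91 CPM and a highest library of 19.8 CPM. Hspe1 (chr1:55144976-55148151), the lid of the mitochondrial HSP60 chamber, had 1112 ± 206 CPM in newly formed oligodendrocytes (n = 5), more than the SDs above inhibitory neurons (642 ± 93.5 CPM, n = 6) and precursors (629 ± 99.7 CPM, n = 5), and was lowest in endothelial cells with 165 ± 27.4 CPM (n = 6).

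The deposited L2 clusters divided these types further. Of 98 clusters at P60, 74 had at least 10 cells in 3 or more libraries. Clusters of the endothelial family led for Hspa1a, with 1900 ± 613 CPM in Endo_4, 1819 ± 765 CPM in Endo_6 (n = 12 libraries each) and 1763 ± 696 CPM in Endo_5 (n = 11). Of the mural cell markers, Vtn (6133 to 6992 CPM) and Kcnj8 (592 to 694 CPM), both known from pericytes, were higher in these 3 clusters than in the other 10 of the family (317 to 3683 CPM and 10.97 to 333 CPM). Rgs5 (3339 to 3745 CPM) lay within the range of the other 10 (1120 to 5356 CPM), and the endothelial marker Flt1 was present (2316 to 2458 CPM). Acta2 was near 0 in these 3 (1.40 to 1.55 CPM), while Endo_2 held 1042 ± 427 CPM (n = 11). The type called endothelial cells thus includes clusters with high mural markers, and at P21 its cells were not divided into clusters. Endo_7, with the lowest Vtn, had 1474 ± 644 CPM of Hspa1a (n = 12). The part of pericyte RNA in this order was not tested. The lowest values were those of Astro_4 (11.4 ± 16.1 CPM, n = 5) and Exc_18 (15.8 ± 14.4 CPM, n = 7). Within excitatory neurons Hspa1a reached 69.0 ± 39.6 CPM in Exc_17 (n = 9), and within inhibitory neurons 106 ± 23.2 CPM in Inhib_3 (n = 4). The SDs of Exc_17 and Exc_18 just overlapped.

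**Figure D2:**
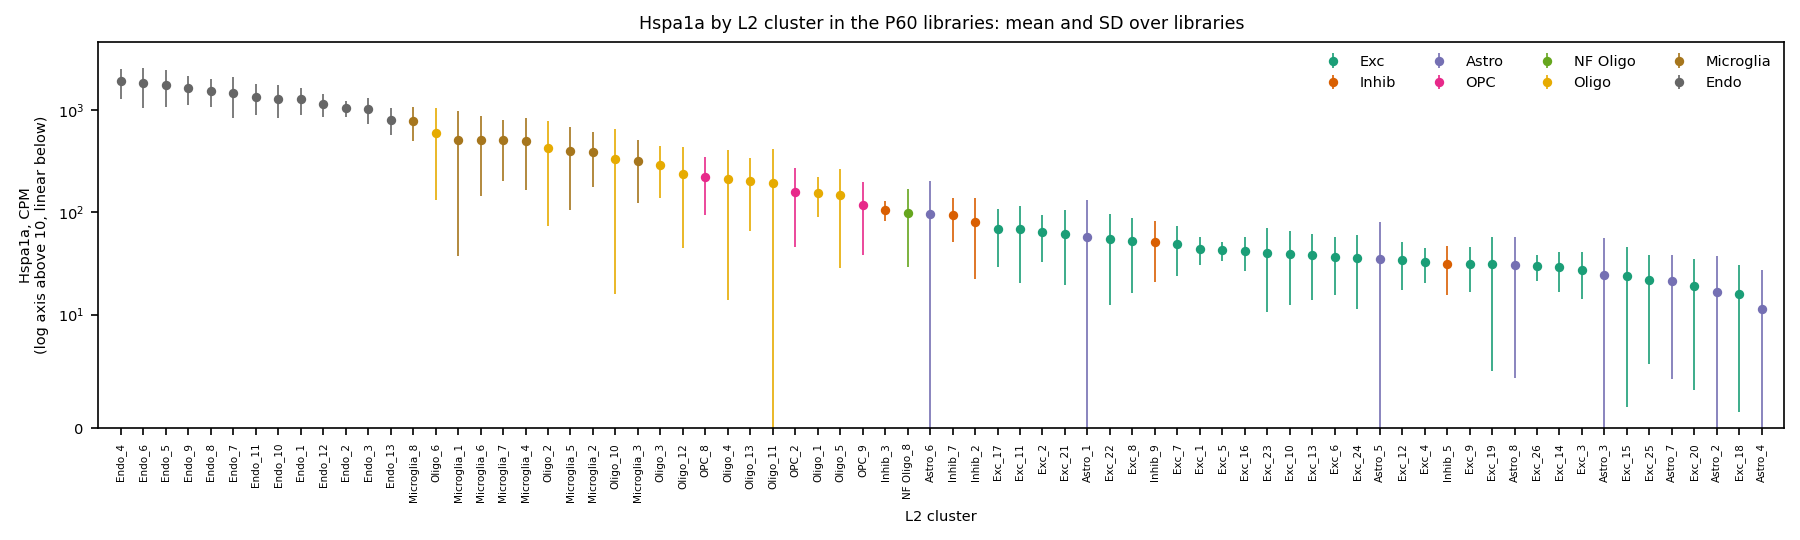
Hspa1a in the 74 L2 clusters of the P60 libraries, ordered by level, with CPM on the y axis (logarithmic above 10, linear below), points at the mean over libraries and lines at the SD, coloured by family. All 13 endothelial clusters lay to the left, from 1900 CPM in Endo_4, and Exc_18 (15.8 CPM) and Astro_4 (11.4 CPM) lay at the right end.

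Among excitatory clusters Exc_22 led for Hspa8 (4169 ± 305 CPM, n = 9) and Exc_3 was the lowest (2265 ± 352 CPM, n = 12). Exc_4 had the highest Hspa5 of the excitatory clusters (549 ± 149 CPM, n = 12) and the lowest Hsph1 (178 ± 25.0 CPM), whereas Exc_13 led all clusters for Hsph1 (292 ± 68.7 CPM, n = 12). Exc_19 and Exc_20 led all clusters for Hsp90ab1 with 4545 ± 419 CPM (n = 12) and 4531 ± 692 CPM (n = 8). Exc_20 also led the excitatory clusters for Hsp90aa1 (3626 ± 466 CPM, n = 8), although 3 mature oligodendrocyte clusters were higher, up to 4069 ± 1170 CPM in Oligo_13 (n = 5). For Dnajb1 the excitatory clusters ran from 53.4 ± 13.6 CPM in Exc_20 to 143 ± 38.2 CPM in Exc_5 (n = 12), below the 697 ± 289 CPM of Microglia_8 (n = 4). Endo_13 had the lowest level of all clusters for Hspa8 (958 ± 190 CPM), Hspa5 (161 ± 52.6 CPM), Hsp90aa1 (374 ± 132 CPM) and Hspe1 (88.5 ± 26.0 CPM, n = 10 each).

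The genes most like each member over these 74 clusters were ranked among 9303 genes by Pearson's r of log2(CPM + 1). The clusters share libraries and depth, so r is a description. Hspb1 followed the endothelial adhesion gene Pecam1 (r = 0.97), Tbx3 and Mmrn2 (0.96 each). Hspa1a was most like Myl12a (0.92), Jund and Rasgrp3 (0.91 each), and Hspa1b most like Hspa1a itself (0.85), Myl12a (0.83) and Mvp (0.82). Hspa5 was most like Ccdc86 (0.86), Calr, another chaperone of the endoplasmic reticulum (0.83), and Lpcat2 (0.83). Hsp90aa1 and Hsph1 both had Faim2 as nearest gene (0.95 and 0.94), followed by Acot7 and Prkcz and by Ociad1 and Ap2s1. Hspa8 was most like Atp6v0b (0.92), Atp6ap1 (0.88) and 2310004N24Rik (0.87), Hsp90ab1 had Supt4h1 and Psmc3 (0.86 each) among its nearest, Dnajb1 most like Sgk1 (0.88), Cttnbp2nl (0.84) and Sdf4 (0.82), and Hspe1 most like Mettl1 (0.86), G6pc3 and 2310004N24Rik (0.85 each). Among the members, Hspa1a ran with Hspb1 (0.77) and Dnajb1 (0.73) and against Hspe1 (-0.68), Hsph1 (-0.66) and Hsp90aa1 (-0.57).

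The age comparison asked which chaperone transcripts differ between the adolescent and the adult PFC, and set the 6 saline P60 libraries against the 3 P21 libraries in 7 types. Precursors could not be fitted, with 1 P21 library. Hspa1a was higher at P60 in excitatory neurons, inhibitory neurons, newly formed oligodendrocytes and endothelial cells, Hspa1b in excitatory neurons and endothelial cells, and Hsp90aa1 in both oligodendrocyte types. These 8 of 59 gene and type pairs passed edgeR's quasi-likelihood test (adjusted p under 0.05 over all genes tested and a change over 1.5-fold), and none passed in the other direction. Over all genes 11.9% of pairs passed, 4.93% as higher at P60. The remaining 11 pairs, of Hspa1b and Hspb1, were too low to test.

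In excitatory neurons Hspa1a stood at 10.8, 11.3 and 14.1 CPM in the P21 libraries. In the saline P60 libraries it ran from 28.0 CPM over a median of 32.2 CPM to 74.9 CPM. The groups did not overlap, and the log2 difference was 1.82 ± 0.34 (SE, edgeR adjusted p = 0.00299), 3.53-fold. Hspa1b rested on few molecules, 20 UMIs at P21 and 156 at P60. Its 3 P21 libraries held 0.363, 0.372 and 0.389 CPM and the P60 libraries 1.31 to 2.46 CPM, a log2 difference of 2.32 ± 0.31 (adjusted p = 0.000129).

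The constitutive and HSP90 genes moved less in excitatory neurons. Hsp90aa1 passed the test without reaching 1.5-fold, at 2132, 2163 and 2527 CPM at P21 against 2676, 3091 and 3432 CPM (lowest, median and highest) at P60, with no overlap and a log2 difference of 0.50 ± 0.10 (adjusted p = 0.00159). Hsp90ab1 (0.41 ± 0.10, adjusted p = 0.00592) and Hspa8 (0.35 ± 0.11, adjusted p = 0.0248) also passed, with overlapping libraries. Hsph1 went the other way, from 277 to 302 CPM at P21 to 206 to 265 CPM at P60, without overlap (log2 difference -0.27 ± 0.09, adjusted p = 0.0323). Hspa5 (0.41, adjusted p = 0.145), Dnajb1 (-0.18, adjusted p = 0.225) and Hspe1 (0.03, adjusted p = 0.802) did not pass, and Hspb1 (50 UMIs at P21 and 38 at P60) was not tested. With no fold limit 40.4% of the genes tested in excitatory neurons passed.

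Inhibitory neurons gave the same member as called. Hspa1a stood at 17.9, 21.7 and 24.0 CPM at P21 and at 37.1, 63.9 and 118 CPM (lowest, median, highest) at P60, with no overlap (log2 difference 1.94 ± 0.27, adjusted p = 0.000263). Against the 2 saline maintenance libraries alone it was 1.46 and no longer passed. Hspa8 (0.44 ± 0.12), Hsp90aa1 (0.38 ± 0.11) and Hsp90ab1 (0.37 ± 0.12) passed below 1.5-fold, as did Dnajb1 in the lower direction (-0.48 ± 0.16, adjusted p = 0.0371).

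**Figure D3:**
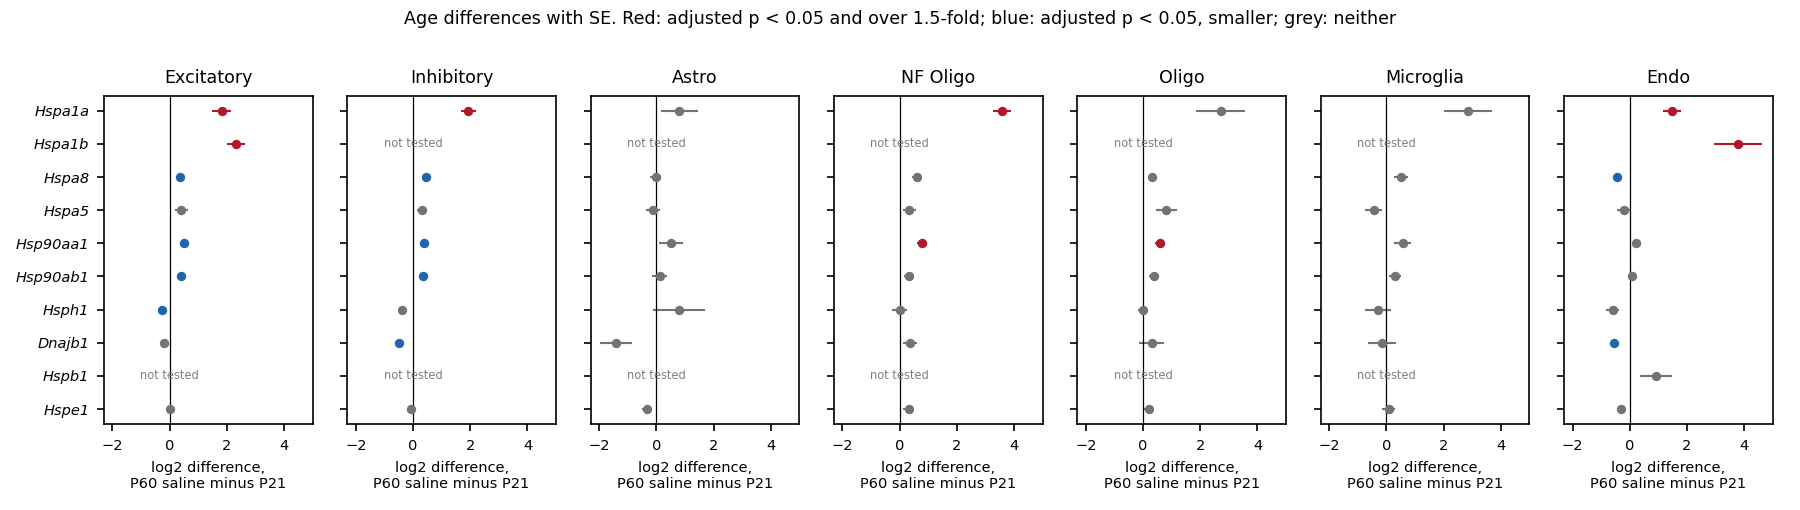
Log2 difference between P60 saline and P21 for each gene in the 7 types tested, with lines at ± SE. Red points passed the test and 1.5-fold, blue points passed with a smaller change and grey points did not pass, and all 8 red points lay to the right of 0, the highest being Hspa1b in endothelial cells (3.79).

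In newly formed oligodendrocytes Hspa1a rose from 11.6, 12.8 and 17.7 CPM at P21 to 119, 187 and 224 CPM (lowest, median, highest of 5) at P60, the best supported age difference of the group (3.57 ± 0.33, adjusted p = 2.86e-06). It rested on 22 UMIs at P21 and 139 at P60. Hsp90aa1 in the same cells had 909, 922 and 1088 CPM at P21 and 1503 to 2176 CPM at P60 (0.76 ± 0.17, adjusted p = 0.0278). In mature oligodendrocytes Hsp90aa1 had 1566, 1643 and 2315 CPM at P21 and 2230 to 3819 CPM at P60, and these ranges overlapped (0.60 ± 0.18, adjusted p = 0.0257). Both Hsp90aa1 calls were lost when single libraries were left out, namely the second P21 (0.70 and 0.54), the third P21 (0.72 and 0.48), the first saline 15 day (0.76 and 0.58) or the second saline 48 h library (0.68 and 0.55), and the mature one also without the first saline maintenance library (0.52). Both were also lost against the saline 48 h (0.87 and 0.62) or saline 15 day libraries alone (0.75 and 0.49) and with the deposited class in place of the cluster family (0.56 and 0.58). The newly formed one was lost with a minimum of 30 cells (0.75), and the mature one with no filter on low counts (0.57) and against the saline maintenance libraries alone (0.66).

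Endothelial Hspa1a stood at 380, 421 and 524 CPM at P21 and at 829, 1266 and 2319 CPM (lowest, median, highest) at P60, without overlap (1.49 ± 0.31, adjusted p = 0.0101). The call was lost without the first P21 library (1.40) and against the saline maintenance libraries alone (1.72). Hspa1b had 1.82, 2.52 and 4.06 CPM at P21 and 19.8 to 117 CPM at P60 (3.79 ± 0.83, adjusted p = 0.0176), with 22 and 320 UMIs, and was lost without any single P21 library (3.52 to 4.15). Hspa8 (-0.43 ± 0.14) and Dnajb1 (-0.54 ± 0.15) passed in the lower direction below 1.5-fold. Hspb1 held 36.1, 41.0 and 189 CPM at P21 and 137 to 282 CPM at P60, with 1 P21 library inside the P60 range, and did not pass (0.92 ± 0.56, adjusted p = 0.331). It passed when the first P21 library was left out (2.14).

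Hspa1a also had higher values at P60 in mature oligodendrocytes, where 14.5, 42.3 and 46.6 CPM at P21 stood against 55.2 to 490 CPM at P60 (2.71 ± 0.85), and in microglia, where 0, 0 and 82.0 CPM stood against 226 to 930 CPM (2.86 ± 0.85). Neither passed edgeR's test (adjusted p = 0.0643 and 0.206), while DESeq2 gave adjusted p = 0.0117 and 0.00475. In astrocytes no member passed, and Hspa1a overlapped between the ages (9.82 to 43.7 CPM against 7.14 to 62.0 CPM).

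Hspa1a was also counted as a share of cells, over the P21 cells and the cells of the 6 saline P60 libraries. After thinning every cell to 2000 UMIs, Hspa1a was found in 1.84% of excitatory neurons at P21 and 6.65% at P60 (7.97% and 29.1% before thinning, with 14 and 0 cells left out). Genes that neurons should lack were read in the same thinned cells, namely the endothelial genes Flt1 (1.42% at P21 and 0.492% at P60) and Cldn5 (2.37% and 0.328%) and the microglial gene C1qa (2.30% and 0.924%). The P21 share of Hspa1a thus lay within the range of these genes and the P60 share above it. In inhibitory neurons Hspa1a was found in 3.05% of thinned cells at P21 and 12.3% at P60 beside 1.26% and 2.84% for Flt1 and 2.00% and 2.31% for C1qa. In newly formed oligodendrocytes it was found in 2.22% and 15.4% of thinned cells, beside 1.61% and 1.92% for Flt1 and 3.63% and 1.28% for C1qa, so that its P21 share was below that of C1qa. Before thinning these shares were 10.7% and 33.6% in inhibitory neurons and 3.67% and 32.7% in newly formed oligodendrocytes. Endothelial cells had 40.4% at P21 and 78.0% at P60 (55.2% and 90.2% before thinning). Median depths at P21 and P60 were 9233 and 13676 UMIs per cell in excitatory neurons, 6812 and 7988 in inhibitory neurons, 2973 and 5732 in newly formed oligodendrocytes and 3912.5 and 4529.5 in endothelial cells.

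Free endothelial RNA was followed through the 4 endothelial markers Flt1, Cldn5, Pecam1 and Ly6c1, all of which were detected in excitatory neurons at both ages. Their summed level there was 32.7 to 76.9 CPM at P21 and 5.37 to 26.1 CPM in the saline P60 libraries. The Hspa1a that these markers would bring was computed at its ratio to them in endothelial cells of the same library. At P21 this was 1.99 to 3.37 CPM of the 10.8 to 14.1 CPM found. In the saline P60 libraries it was 0.726 to 3.23 CPM of the 28.0 to 74.9 CPM found. Inhibitory neurons gave at most 4.11 CPM of 17.9 to 24.0 CPM at P21. In saline P60 libraries they gave 0.558 to 34.0 CPM of 37.1 to 118 CPM. Newly formed oligodendrocytes gave 2.68 to 7.84 CPM of 11.6 to 17.7 CPM at P21. In saline P60 libraries they gave 0 to 8.9 CPM of 119 to 224 CPM. Free RNA of other types was not counted. The immediate early genes, transcripts that rise within minutes of stimulation or dissociation, were also lower at P60 in excitatory neurons, where 8 of 12 passed in that direction beside 11.1% of all genes, among them Ier2 (-2.92), Junb (-2.15) and Fos (-1.28). In newly formed oligodendrocytes 2 of 8 passed, Fos and Fosb, both higher at P60 (2.12 each), beside 0.746% of all genes. The difference between these types was not tested. The part of dissociation in the chaperone differences was not tested. Nor was the part of free RNA in the age differences of Hspa1a.

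Within single clusters the age difference could be fitted for 26 excitatory and 3 inhibitory clusters. Of 224 gene and cluster pairs 20 passed, all higher at P60 and all in excitatory clusters, with 10.6% of pairs passing over all genes (4.27% as higher). Hspa1a passed in 10 of the 22 excitatory clusters where it could be tested (Exc_1, 2, 4, 5, 6, 7, 9, 14, 16 and 26, log2 differences 1.33 to 2.04) and had a higher value at P60 in all 22. Hsp90aa1 passed in Exc_1, Exc_18, Exc_19 and Exc_20 (0.69 to 0.76), Hsp90ab1 in Exc_19, Exc_20 and Exc_25 (0.60 to 0.64), Hspa8 in Exc_1 and Exc_24 (0.66 and 0.61) and Hspa5 in Exc_5 (0.65). Hsph1 had a lower value at P60 in all 28 clusters tested and passed in 3 of them below 1.5-fold. The clusters came from the same libraries, so their shared direction for Hspa1a and Hsph1 is not separate support. Shares of all genes with 1 direction in every cluster, or passing below 1.5-fold, are not given here. Cluster names at P21 were assigned by the authors by correlation with the P60 clusters. Of the excitatory P21 clusters 24 of 26 had their closest P60 profile under the same name (not Exc_18 and Exc_20). So had 12 of 12 inhibitory clusters, with r from 0.29 to 0.88. This match follows in part from how the names were given and does not test them.

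The wider chaperone list of 102 genes in 7 sets, 100 of them listed once, went both ways. In excitatory neurons 8 of 97 tested genes were higher at P60 and 7 lower, with a median log2 difference of 0.10 beside -0.0048 over all genes, and 8.18% of all genes tested were higher and 11.1% lower. The largest changes were those of Serpinh1, the collagen chaperone (-3.19), the heat shock factor gene Hsf4 (2.84), the small heat shock protein gene Hspb7 (2.44), the heat shock factor gene Hsf2 (-1.16), Sdf2l1 (-1.12) and Dnajc21 (0.88). By set, J-domain genes had 3 higher and 1 lower of 25, HSP90 paralogs and cochaperones 2 and 1 of 17, other HSP70, HSP110 and exchange factors 0 and 1 of 14, small heat shock proteins 1 and 0 of 6, chaperonins 1 and 0 of 15, heat shock factors 1 and 1 of 4 and endoplasmic reticulum chaperones 0 and 3 of 16. Higher and lower genes of the list numbered 11 and 3 of 91 in inhibitory neurons, beside 5.73% and 8.27% of all genes. They numbered 12 and 5 of 73 in mature oligodendrocytes (7.51% and 10.3%) and 3 and 7 of 97 in endothelial cells (5.31% and 7.35%). In newly formed oligodendrocytes they numbered 1 and 0 of 73 (0.746% and 1.19%), in astrocytes 0 and 1 of 74 (0.121% and 0.984%) and in microglia 0 and 1 of 60 (0.025% and 0.626%).

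The cocaine comparisons asked whether drug taking and withdrawal alter these transcripts. No member passed in any cell type at any period. At maintenance 0 of 44 gene and type pairs passed in 5 types, at 48 h 0 of 68 in 8 types and at 15 days 0 of 68 in 8 types, by edgeR and by DESeq2 alike. The share of all genes that passed was 0.0115%, 0.00827% and 0.339%, or 0.131% over the 3 periods. At an unadjusted p under 0.05 there were 7, 12 and 1 pairs, beside 4.74%, 4.53% and 5.37% of all gene and type pairs at that threshold, and the smallest adjusted p-values were 0.576, 0.396 and 0.961 (edgeR). With the periods averaged in 1 contrast 0 of 44 passed (smallest adjusted p = 0.157, beside 0.00689% of all genes called), and 9 of 44 had an unadjusted p under 0.05 beside 6.27% of all pairs. The change of the cocaine difference between periods was tested as an interaction and passed in 0 of 156 tests (DESeq2 0, 0.00542% of all genes), with 17 at an unadjusted p under 0.05 beside 4.44% of all pairs.

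In excitatory neurons Hspa1a at maintenance was 28.0 and 34.7 CPM with saline and 25.3 and 38.4 CPM with cocaine. At 48 h it was 29.7 and 29.4 CPM against 22.2 and 31.7 CPM, and at 15 days 43.5 and 74.9 CPM against 71.8 and 35.0 CPM. The groups overlapped at each period, with log2 differences of -0.02 ± 0.46, -0.14 ± 0.44 and -0.10 ± 0.39. Hspa8 had lower values with cocaine at 48 h (3143 and 3230 CPM against 3485 and 3521 CPM, -0.16 ± 0.14) and Dnajb1 higher ones (84.0 and 97.8 CPM against 76.6 and 67.8 CPM, 0.32 ± 0.13), and neither passed (adjusted p = 0.987 and 0.980). The other members tested differed by -0.15 to 0.48 on the log2 scale over the 3 periods.

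**Figure D4:**
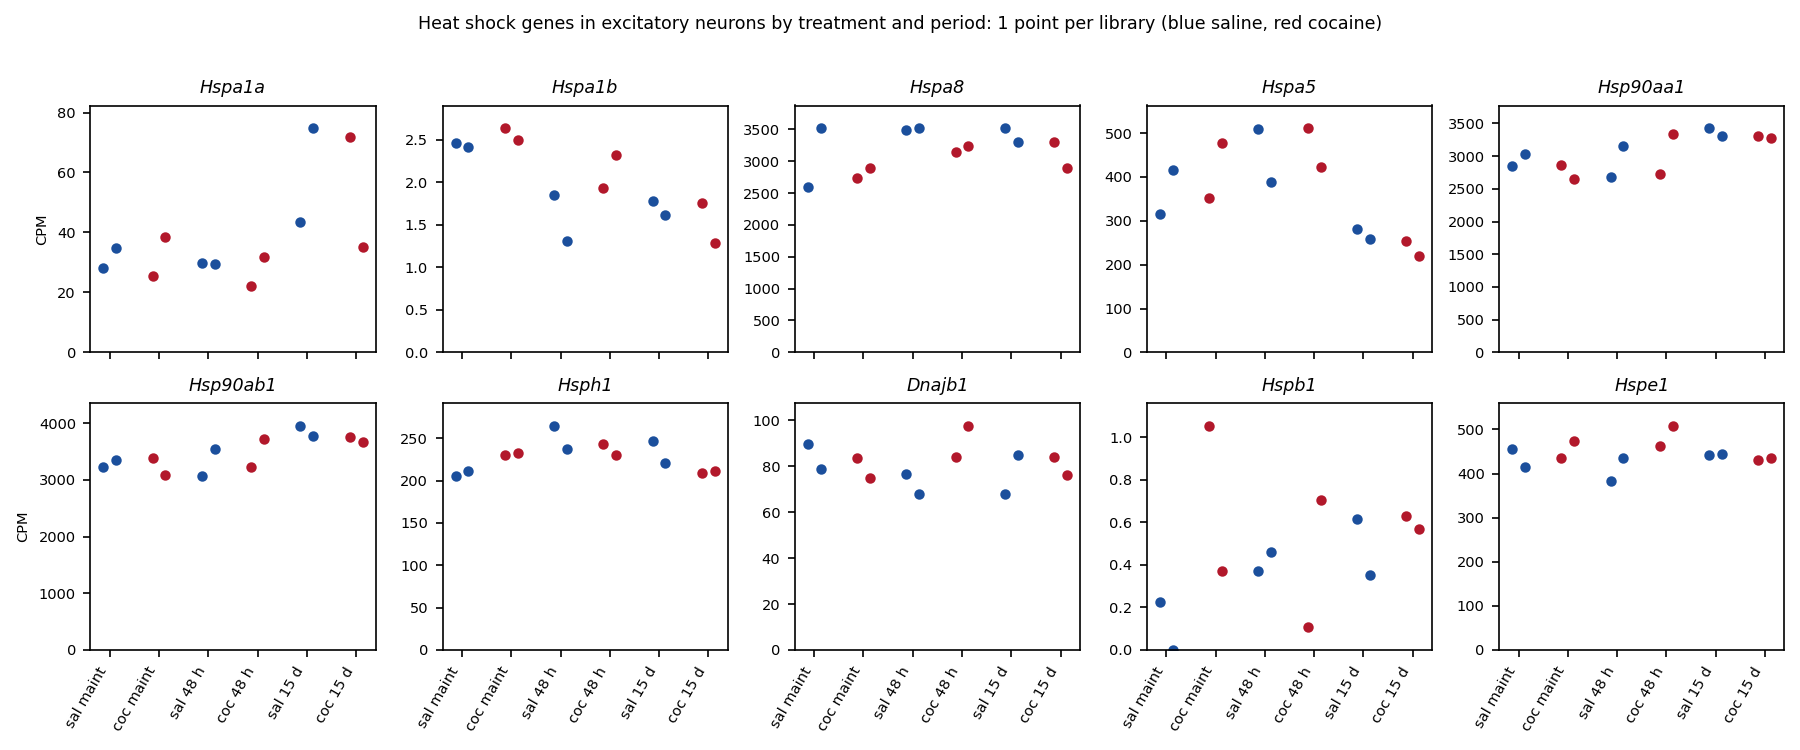
CPM of each of the 10 genes in excitatory neurons by treatment and period, 1 point per library (blue saline, red cocaine, 2 libraries per group) on axes that start at 0. Saline and cocaine points intermingled for Hspa1a, and for Hspa5 all 4 libraries of 15 days (219 to 281 CPM) sat below the other 8.

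The 4 pairs with the smallest unadjusted p within a single period lay in mature oligodendrocytes and endothelial cells and were higher with cocaine. Hsph1 in mature oligodendrocytes at 48 h was 172 and 210 CPM with cocaine and 90.4 and 93.8 CPM with saline (1.06 ± 0.28). Endothelial Hsp90aa1 at 48 h was 702 and 761 CPM against 441 and 531 CPM (0.66 ± 0.17). At maintenance endothelial Hsp90ab1 was 2586 and 2631 CPM against 1551 and 2000 CPM (0.58 ± 0.15), and Hspa5 in mature oligodendrocytes 785 and 828 CPM against 512 and 586 CPM (0.61 ± 0.17). With 2 libraries per group, none passed over all genes. The groups did not overlap, which follows largely from picking the pairs by their p-values and adds no support.

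Single clusters gave 1 call in 509 tests over the 3 periods, beside 0.532% of all genes. It was Hspa1a in Exc_13 at 15 days (1.10 ± 0.29, adjusted p = 0.0375), and the values were 37.5 and 40.1 CPM with saline and 45.3 and 100.5 CPM with cocaine, without overlap. The second saline 15 day library held 20 cells of this cluster, so that no fit was possible at a minimum of 30 cells. Of the wider chaperone list 0 of 438 gene and type pairs passed at maintenance and 0 of 662 at 48 h by edgeR or DESeq2 (36 and 53 at an unadjusted p under 0.05, beside 4.74% and 4.53% of all pairs). At 15 days 5 of 662 passed, all higher with cocaine, as were most calls over all genes (0.306% of all pairs higher, of 0.339% called). Among these Creld2 (0.74 ± 0.16, adjusted p = 0.0421) and Dnajc2 (0.66 ± 0.13, adjusted p = 0.0233) were higher in excitatory neurons (2 of 96, beside 0.706% of all genes). The other pairs, named after their values were seen, were Stub1 in inhibitory neurons (0.99) and endothelial cells (0.97) and Sdf2l1 in mature oligodendrocytes (1.84), and DESeq2 called 3 pairs of the list.

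Period itself went with larger differences. This comparison was chosen after the levels had been seen and set the 4 libraries of 15 days, saline and cocaine, against the 4 of 48 h in the same fit. Hspa5 was lower at 15 days in all 8 cell types, with no overlap in any. The types came from the same libraries and are not separate replicates. Over all gene and type pairs 2.37% were called lower, and 23.7% had an unadjusted p under 0.05 (edgeR). The share of all genes without overlap in all 8 types is not given here. In excitatory neurons the 48 h libraries held 510 and 389 CPM with saline and 512 and 423 CPM with cocaine. The 15 day libraries held 281 and 259 CPM with saline and 253 and 219 CPM with cocaine (-0.89 ± 0.15, edgeR adjusted p = 0.00903), which was lost without the first cocaine 48 h library (-0.82). The saline 15 day values lay near the 275 to 293 CPM of P21.

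The largest drop of Hspa5 was in mature oligodendrocytes, from 700 to 1018 CPM at 48 h to 318 to 403 CPM at 15 days (-1.37 ± 0.12, adjusted p = 1.93e-10). Precursors went from 995 to 1469 CPM to 484 to 639 CPM (-1.24 ± 0.15), microglia from 1257 to 1911 CPM to 714 to 883 CPM (-1.11 ± 0.15) and astrocytes from 591 to 642 CPM to 282 to 351 CPM (-1.09 ± 0.12). Newly formed oligodendrocytes (-0.94 ± 0.16), inhibitory neurons (-0.84 ± 0.12) and endothelial cells (-0.80 ± 0.12) followed, the first of these being lost without the second saline 48 h library (-0.79). Against maintenance Hspa5 was lower at 15 days in excitatory neurons (-0.66 ± 0.15, adjusted p = 0.0307), mature oligodendrocytes (-0.98 ± 0.12) and microglia (-0.85 ± 0.15). Both comparisons use the same 15 day libraries.

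**Figure D5:**
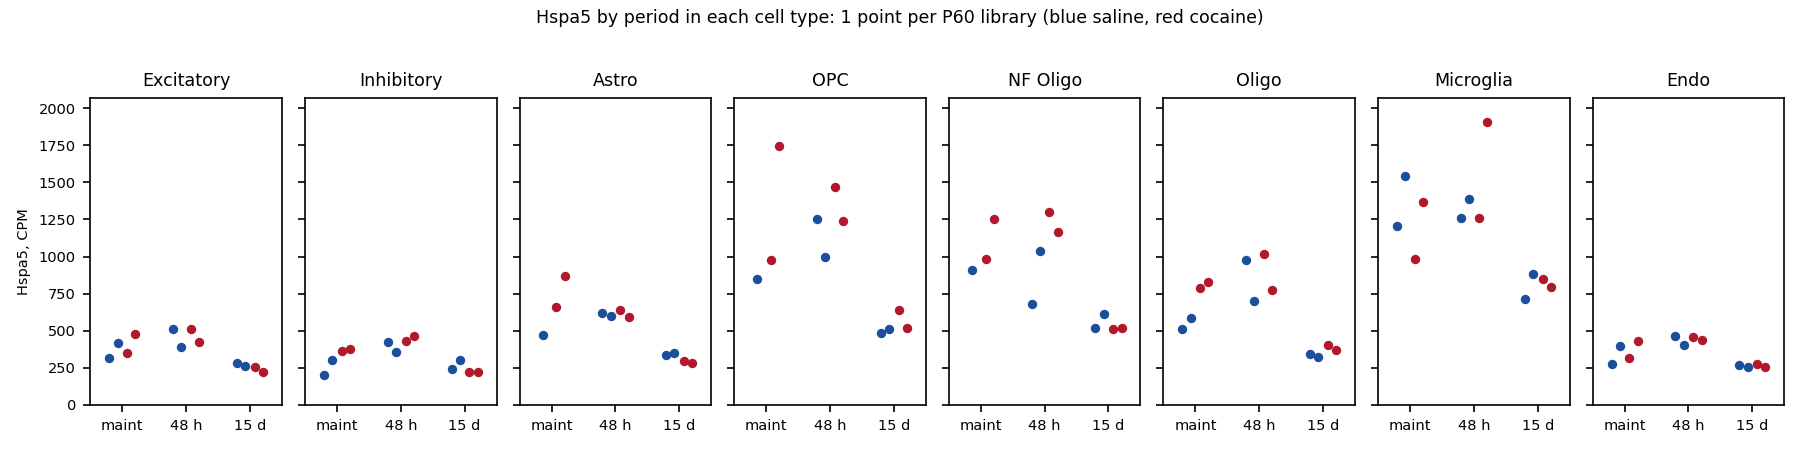
Hspa5 in CPM, from 0, by period in each of the 8 cell types, 1 point per P60 library (blue saline, red cocaine). In every type the 4 libraries of 15 days lay below those of 48 h, as in mature oligodendrocytes (318 to 403 CPM against 700 to 1018 CPM).

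In all, 18 of 68 pairs passed between 15 days and 48 h, 14 lower and 4 higher at 15 days, beside 8.38% of all genes (2.37% lower and 6.01% higher). Hspa8 was lower at 15 days in precursors (-0.66 ± 0.12), newly formed oligodendrocytes (-0.68 ± 0.14), mature oligodendrocytes (-0.62 ± 0.11) and microglia (-0.83 ± 0.14). Hsph1 (-0.83 ± 0.19) and Hspa1b (-2.20 ± 0.63) were lower in mature oligodendrocytes. Higher at 15 days were Hspa1a in inhibitory neurons (46.0 to 71.0 CPM at 48 h and 82.7 to 118 CPM at 15 days, 0.68 ± 0.17, adjusted p = 0.0279) and, in astrocytes, Hsp90aa1 (1.16 ± 0.15), Hsp90ab1 (0.70 ± 0.15) and Dnajb1 (1.36 ± 0.46). The summed endothelial markers in inhibitory neurons were 8.65 to 53.1 CPM at 48 h and 63.7 to 274 CPM at 15 days. At the endothelial ratio they would bring 1.18 to 9.16 CPM and 7.10 to 34.0 CPM of Hspa1a. The part of endothelial RNA in this difference was not tested.

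Several of these calls were lost when a single library was left out, some of them with little change in the difference. Inhibitory Hspa1a was lost without either cocaine 15 day (0.67 and 0.72), either saline 48 h (0.66 and 0.71) or the second saline 15 day library (0.66). Astrocyte Dnajb1 was lost without the first saline 48 h (0.93), the second cocaine 48 h (1.19), the second cocaine 15 day (1.30) or the second saline 15 day library (1.24), and astrocyte Hsp90ab1 without the first saline or first cocaine 48 h library (0.55 each). Hspa1b in mature oligodendrocytes was lost without either cocaine 15 day (-2.09 and -2.38), the first saline 48 h (-1.42) or the first cocaine 48 h library (-1.98). Hspa8 in newly formed oligodendrocytes was lost without the second saline 15 day (-0.65), first cocaine 15 day (-0.63), second saline 48 h (-0.68) or second cocaine 48 h library (-0.68). Hspa8 in precursors, mature oligodendrocytes and microglia and Hsph1 in mature oligodendrocytes held under every left-out library. DESeq2 did not call inhibitory Hspa1a (adjusted p = 0.0797), astrocyte Dnajb1 (0.150) or Hspa1b (0.0965) and Hsph1 (0.0530) in mature oligodendrocytes, and Hspa8 in newly formed oligodendrocytes was lost with no filter on low counts (-0.58).

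Between 15 days and maintenance 7 of 44 pairs passed, all lower at 15 days (6.72% of all genes, 2.11% lower). Beside Hspa5 these were Hspa1b (-2.23) and Hspe1 (-0.69) in mature oligodendrocytes, Hspa8 in microglia (-0.62) and Hspb1 in endothelial cells (-0.64). By single cluster 9 of 120 tests passed in 15 excitatory clusters, beside 1.14% of all genes. Of these 7 were Hspa5, lower at 15 days (-0.61 to -0.86). The other calls were Hspa1a, higher at 15 days in Exc_13 (1.59 ± 0.33, adjusted p = 0.00212) and Exc_14 (1.11 ± 0.26, adjusted p = 0.0102), beside 0.455% of all genes higher. In Exc_13 the maintenance libraries held only 3 to 13 UMIs of Hspa1a each. Over cell types, without the second cocaine maintenance library 2 pairs passed. Hspe1 (-0.57 and -0.35) and Hspa1b (-1.56 and -1.51) in mature oligodendrocytes and Hspa8 in microglia (-0.54 and -0.52) were lost without that library or without the first saline maintenance library, and Hspa8 in microglia fell below the 1.5-fold limit with DESeq2 and with RLE size factors (-0.57 each). Excitatory Hspa5 was lost without either cocaine 15 day (-0.61 and -0.72), the second saline 15 day (-0.64), the second saline maintenance (-0.52) or the second cocaine maintenance library (-0.54). Endothelial Hspb1 was lost when any of 8 libraries was left out, with -0.35 without the first saline maintenance library and -0.54 to -0.66 without the others. Between 48 h and maintenance 0 of 44 passed by edgeR or DESeq2 (0.344% of all genes), with 8 at an unadjusted p under 0.05 beside 8.13% of all pairs.

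Period and library size cannot be told apart, since the 15 day libraries held the most cells and the most UMIs. Animal age at collection may also differ between the periods. Median UMIs per cell overlapped, at 5941.5 to 10962 at 48 h and 8771.5 to 11334.5 at 15 days. The 3 excitatory markers Snap25, Slc17a7 and Neurod6, all detected in each non-neuronal type, also moved with period. Their sum in astrocytes was 60.0 to 372 CPM at 48 h and 739 to 1851 CPM at 15 days, in mature oligodendrocytes 95.4 to 223 CPM and 332 to 582 CPM, in microglia 75.6 to 252 CPM and 846 to 1584 CPM and in endothelial cells 105 to 245 CPM and 327 to 479 CPM. The part of neuronal RNA in the astrocyte differences of Hsp90aa1, Hsp90ab1 and Dnajb1 was not tested. Nor was its part in the lower Hspa5 of the non-neuronal types. By single cluster, Hspa5 was lower at 15 days in 18 of the 20 neuronal clusters fitted (-0.61 to -1.09, beside 1.53% of all genes). The other cluster calls were Hspa1a, higher in Exc_4, Exc_10 and Exc_12 (0.76 to 1.24), and Hsph1, lower in Exc_13 (-0.61). Over all excitatory neurons Hspa1a stood at 22.2 to 31.7 CPM at 48 h and 35.0 to 74.9 CPM at 15 days, without overlap, and did not pass by edgeR (0.96 ± 0.29, adjusted p = 0.109, DESeq2 0.0363).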

How the data were processed

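Single cells of the PFC were profiled with 10X Chromium in 15 libraries. Reads had been aligned by the authors to mm9 with Ensembl gene models (NCBIM37), and the deposited matrices hold UMI counts per gene and barcode. Of the barcodes, those in the deposited cell annotation were analysed, which holds the cells left by the authors' filters. At both ages these removed cells of high mitochondrial content, cells with few detected genes and cells taken as double droplets, and no doublet caller was run here. At P60 the floor on detected genes was higher for neurons than for other cells. The study's methods name a single floor for P21 cells, while its results state the same criteria for both ages. The deposited cell annotation gives clusters and classes made by the authors, and per the file headers a mitochondrial fraction for each cell, which was not used in the tests. P21 cells had been named by the authors by correlation with P60 clusters.

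Counts were summed per library and cell type (at least 10 cells), without the 13 genes of the mitochondrial genome and 144 genes of ribosomal proteins. Sums were tested over all remaining genes with edgeR 4.0.16 (TMM, filterByExpr, robust glmQLFit, quasi-likelihood F test, Benjamini-Hochberg adjustment). A gene was called at an adjusted p under 0.05 and a change over 1.5-fold, and at least 2 libraries per group were required. The age fit held the 3 P21 and 6 saline P60 libraries, and the treatment and period fits held all 12 P60 libraries with 6 group means. DESeq2 1.42.0, other filters and left-out libraries were alternatives. The tests were tried first on simulated counts with known changes.

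All 10 members were entered in every comparison, and not every member is named in each. Of the wider list at most 6 called genes per comparison were named in excitatory neurons, and of similar genes the nearest 3. The members, lists and tests were chosen with earlier results of these data known. Promoters were taken from RefSeq GRCm38.p6 and gene positions from NCBIM37. UMIs in a droplet can stem from free RNA. A few genes of the marker list and of the similar genes are not reported here.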

Additional observations from a re-analysis of the deposited data

Results flagged for a closer look

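In 70 groups of 5 or 6 P60 saline libraries with at least 30 UMIs of a member, the highest or lowest library was compared with its neighbour by Dixon's ratio, and 10 groups had a library far from the others. Chance gives this in about 1 group in 20.

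In excitatory neurons Hspa1a was 74.86 CPM in the second saline 15 day library, while the next highest held 43.49 CPM and the lowest 27.97 CPM. The other 9 cases all concerned the first saline maintenance library. Its median of UMIs over cells of all types was the lowest, which does not give its depth within a type. In excitatory neurons it had the lowest Hspa8 at 2599 CPM (next 3308 CPM). In mature oligodendrocytes it had the highest Hspa1a at 490.0 CPM (next 208.4), Dnajb1 at 524.4 CPM (next 270.2) and Hspe1 at 404.0 CPM (next 283.8). In microglia it had the highest Hspa1a at 929.6 CPM (next 465.8), Hspa1b at 56.58 CPM (next 9.889) and Hspe1 at 505.2 CPM (next 354.7). Hspa1b in endothelial cells was 116.5 CPM there (next 54.94), and Hsph1 in newly formed oligodendrocytes 239.8 CPM (next 136.0). All 4 calls of Hspa1a between the ages, in excitatory and inhibitory neurons, newly formed oligodendrocytes and endothelial cells, held without this library.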

How the results depend on the processing

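For 33 calls of single members between ages or periods, 586 values were recomputed under the alternatives, of which 515 kept their direction and side of the threshold and 71 kept the direction and missed the threshold. For age, excitatory calls went from 2 to 6 with no fold limit. Inhibitory calls went from 1 to 0 with saline maintenance alone, 2 with saline 48 h alone, 5 with no fold limit and 2 without the first P21 library. Non-neuronal calls went from 5 to 9 with DESeq2, 8 with all 12 P60 libraries, 2 with saline maintenance alone and 11 with the deposited class in place of the cluster family (an alternative chosen after seeing the data). Calls in neuronal clusters went from 20 to 39 with no filter on low counts and 60 with no fold limit. For cocaine at 48 h, 0 calls became 3 with no filter (endothelial Hspa8 0.73 and Hsp90aa1 0.63, oligodendrocyte Hsp90aa1 0.66), and the 1 call in clusters became 2 with no filter and 0 with 30 cells per library, where its cluster kept 1 saline 15 day library and could not be fitted. Between 15 days and maintenance 7 calls became 11 with no filter and 11 with no fold limit.

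Leaving out 1 library at a time gave 2 to 2 calls for age in excitatory neurons, 1 to 2 in inhibitory neurons and 3 to 7 in non-neuronal types (3 without the second or the third P21, the second saline maintenance or the second saline 48 h library). It gave 0 to 1 for cocaine at maintenance, 0 to 1 at 48 h, 0 to 0 at 15 days, 0 to 1 over periods and 0 to 0 for the interactions. The calls that appeared were endothelial Hspb1 without the first saline maintenance library (1.28 at maintenance and 0.63 over periods) and endothelial Hspa8 at 48 h without either cocaine maintenance library (0.77). For period it gave 12 to 20 calls (15 days against 48 h), 2 to 10 (15 days against maintenance) and 0 to 0 (48 h against maintenance). No paired analysis was possible because replicate numbers were given in accession order and pair nothing.

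Depth limits Hspa1b and Hspb1 outside endothelial cells, and 2 libraries per group limit the treatment comparisons.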

Other observations

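Some other chaperones of the endoplasmic reticulum were lower at 15 days than at 48 h. This was seen in the same libraries and comparison as Hspa5, with the same link between period and library size. Of the endoplasmic reticulum set, 4 of 14 genes tested were lower in mature oligodendrocytes, beside 1.91% of all genes. The counts were 3 of 14 in precursors (3.54%), 3 of 14 in astrocytes (3.98%), 3 of 13 in microglia (11.8%, with 1 gene higher) and 2 of 16 in endothelial cells (1.08%, with 1 higher). Inhibitory neurons had 1 of 15 (0.276%), newly formed oligodendrocytes 1 of 12 (0.194%) and excitatory neurons 0 of 15 (0.387%). Pdia6, a disulfide isomerase of the endoplasmic reticulum named here after its values were seen, was lower at 15 days in 7 of 8 types (log2 differences -0.65 to -1.04), excitatory neurons being the exception. Stub1, a ubiquitin ligase that binds HSP70 and HSP90, was higher in 7 of 8 types, among them excitatory neurons (0.89, edgeR adjusted p = 0.0277). It too was named after its values were seen. The types came from the same libraries and are not separate replicates. The share of all genes that pass in 7 of 8 types is not given here.

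Over the whole wider list 14 gene and type pairs were higher and 41 lower at 15 days than at 48 h, of 662 tested, beside 6.01% and 2.37% of all genes. Mature oligodendrocytes had 1 higher and 14 lower of 81.

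Across the 15 libraries the level of Hspa1a in excitatory neurons ran most closely with Kbtbd5 (r = 0.92), Onecut2 and Aatf (0.91 each) and Adck3 and Pir (0.90 each) among 8108 genes. These points include both ages and all periods, so r is a description of these libraries.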
